A study of Mus musculus with 39 samples.

Results

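The comparison described here follows granule neurons of the mouse cerebellum through the later days of a primary culture. Libraries from day 5 in vitro (DIV5) were set against libraries from day 2 (DIV2), both grown with the solvent DMSO. It takes in 4 of the 39 libraries of the series, 2 at DIV2 and 2 at DIV5, chosen by their labels, and is described across all genes with neuronal genes kept apart from genes of glia, microglia and mesenchymal cells. The cells were isolated from cerebella of C57Bl/6J pups at P6-P7 and plated; freshly isolated cells (DIV0, 2 libraries) and DIV5 cultures given 100 nM UNC1999, an inhibitor of the histone methyltransferases EZH2 and EZH1 (2 libraries), belong to the same set of cultures. Nothing in the labels says whether libraries of a group come from separate cultures or how many animals were pooled, so the p-values below measure only the spread between these libraries. Reference libraries from animals were polyadenylated RNA on ribosomes of granule cells, obtained by translating ribosome affinity purification (TRAP) from a line in which Neurod1 regulatory sequences drive an EGFP-tagged ribosomal protein (5 libraries each at P7, P12 and P21), and 3 inputs of total cerebellar RNA, 1 at each age. A further set of 5 DIV5 cultures from P7 mice of the genotype Ezh1(wt/wt);Atoh1-Cre, the controls of an Ezh1 deletion, was used to see how far levels at DIV5 differ between cultures.

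Granule cells are the small excitatory neurons of the cerebellum and the most numerous neurons of the brain. Their progenitors divide in the external granular layer under Sonic hedgehog, which Purkinje cells release, then leave the cell cycle, extend parallel fibre axons, migrate inward along Bergmann glia and form synapses with mossy fibre and Golgi cell terminals. Maturation brings the GABA-A receptor subunits alpha 6 and delta and a switch of NMDA receptor subunits from 2B towards 2C. Such preparations also carry astrocytes, microglia and meningeal cells, which can go on dividing in a dish, whereas granule neurons do not.

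Deposited counts summed to 23130103 and 16053007 at DIV2 and to 16578753 and 21416683 at DIV5. The replicate pairs differed by more than counting error, with a chi-square per degree of freedom of 7.63 at DIV2 and 4.95 at DIV5 (1.45 at DIV0). Markers of the labelled cell type were present on both days. The granule lineage factor Neurod1 stood at 1668 and 1603 counts per 1000000 of the library total (CPM) at DIV2 and at 797 and 816 at DIV5, and the granule-specific GABA-A receptor subunit Gabra6 at 7.05 and 6.79 CPM at DIV2 and 17.4 and 16.4 CPM at DIV5. Adjusted p-values are from edgeR's quasi-likelihood test with Benjamini-Hochberg adjustment over all genes tested, with calls at an adjusted p under 0.05; a log2 fold change is DIV5 over DIV2 from that fit, ± its standard error (SE), with n = 2 libraries per group.

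Of 15978 genes tested, 4966 rose (31.1%) and 5699 fell (35.7%) between DIV2 and DIV5. Large changes were mostly rises, with 2752 called genes at least 2-fold higher and 863 at least 2-fold lower. The balance of calls moved with the scaling and with the libraries fitted. TMM scaling put 46.6% of the calls on the higher side, scaling by library size alone 57.4% (5865 higher, 4354 lower; the median of all genes moved from -0.05 to 0.09 on the log2 scale), and scaling on genes enriched in granule cell TRAP 66.3% (6822 higher, 3473 lower; median 0.20). The last scaling was added after the data were seen. A fit of only the 4 DIV2 and DIV5 libraries, with TMM scaling, put 51.9% of the calls on the higher side (5088 higher, 4707 lower of 15360 genes; median 0.01). Both DIV5 libraries lay above both DIV2 libraries for 45.7% of the genes and below both for 34.8%.

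Genes were sorted by where they are expressed in the animal, using libraries that take no part in the comparison. In 15 Neurod1 TRAP libraries against 3 inputs, 36.6% of 15479 genes were higher in TRAP and 41.2% lower. Of the 3431 genes with levels in TRAP at least 2-fold under input, 1920 rose in culture and 483 fell (median log2 fold change 0.78). Of the 3653 genes at least 0.5 log2 units higher in TRAP, 530 rose and 1873 fell (median log2 fold change -0.23). Scaled by library size alone, 802 rose and 1367 fell. The 7925 genes in neither class had 2087 rises and 3317 falls, median -0.13. Another 969 genes were too low in the TRAP and input libraries to be sorted, and 429 of these rose and 26 fell. Genes under-represented in granule cell ribosomes took 10.3% and 11.0% of all counts in the DIV2 libraries and 20.4% and 19.6% in the DIV5 libraries. Genes enriched there went from 32.9% and 32.6% to 27.7% and 27.8%. The class is a sorting by level and not a list of glial genes, since some transcripts of neurons and of the nucleus also fall under input: the nuclear RNA Miat, the netrin receptor gene Dcc and Grid2ip are in it.

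**Figure D1:**
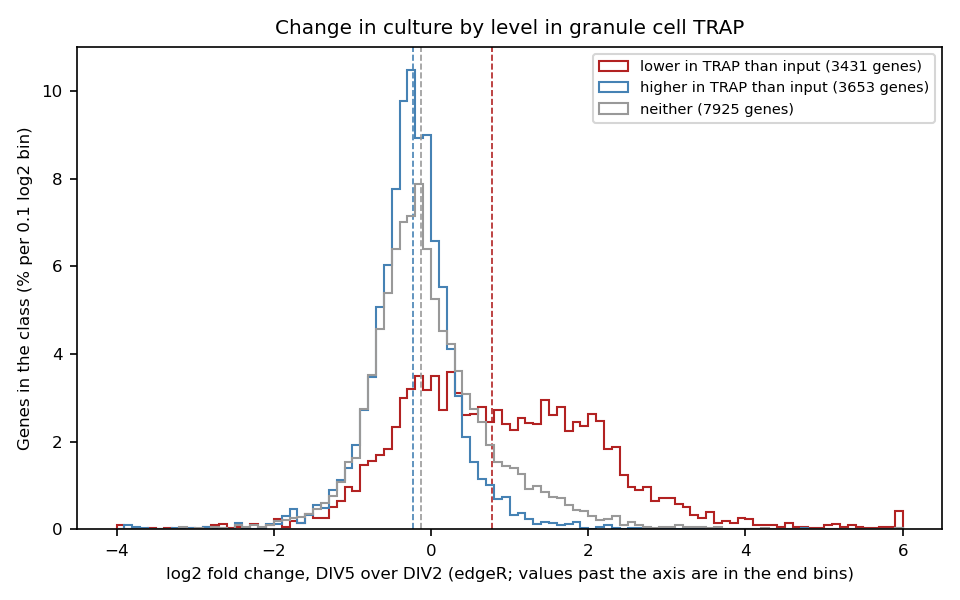
Distribution of the log2 fold change from DIV2 to DIV5 (x axis) in genes lower in granule cell TRAP than input, higher in it, or neither (y axis, percent of the class per bin of 0.1); dashed lines are the class medians. The genes lower in TRAP have a broad shoulder to the right, with a median of 0.78, and the genes higher in TRAP centre slightly left of 0, with a median of -0.23.

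Most listed genes of cells other than neurons rose, while those of oligodendrocytes and choroid plexus moved both ways and 2 of 3 red cell genes fell. Of 147 tested members of the lists for astrocytes, reactive astrocytes, oligodendrocytes, microglia, endothelium, mural cells, mesenchyme, choroid plexus and red cells, 113 rose and 11 fell. The median log2 fold change was 1.61, against -0.05 over all genes. Of these members 133 are lower in TRAP than input. Their summed level went from 11625 and 16569 CPM at DIV2 to 59944 and 54279 CPM at DIV5. The second DIV2 library had a higher sum than the first. In bulk RNA such as this, more cells of a type and more RNA per cell cannot be told apart.

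**Figure D2:**
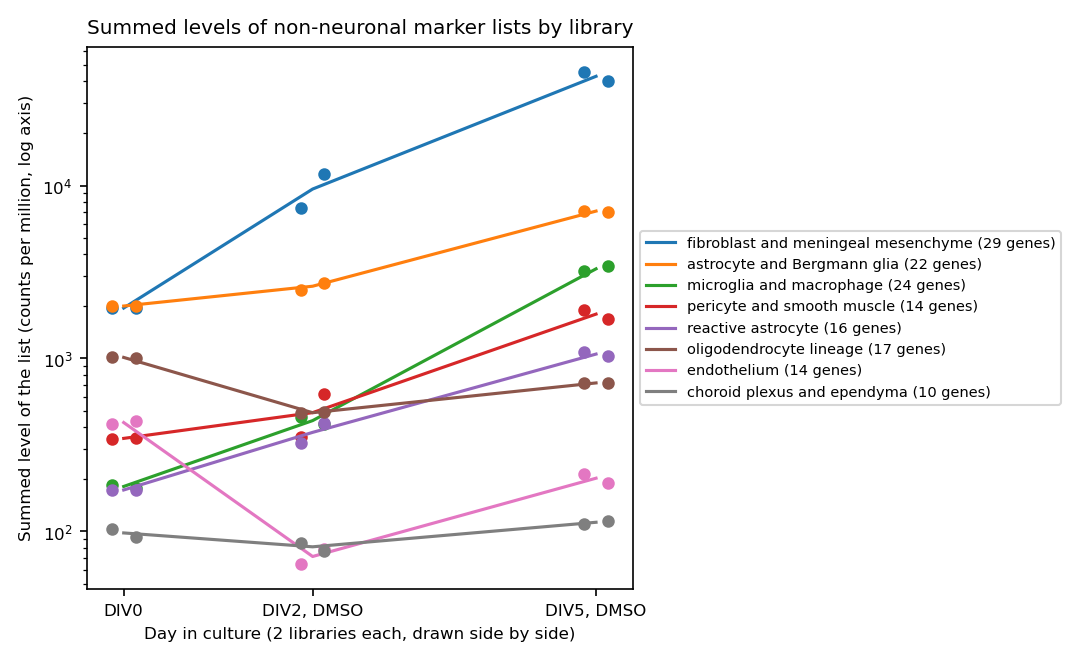
Summed CPM (log axis) of each non-neuronal marker list in the 2 libraries of DIV0, DIV2 with DMSO and DIV5 with DMSO; points are libraries and lines join the means. Mesenchymal, astrocyte, microglial and mural sums are above their DIV2 values in both DIV5 libraries. The oligodendrocyte and endothelial sums at DIV5 are also above those at DIV2, but under those at DIV0.

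Genes of astrocytes and Bergmann glia, the radial glia of the cerebellar cortex, rose in 21 of 22 cases and fell in none. The exception was the stem cell factor Sox2. The water channel gene Aqp4 stood at 209 and 199 CPM at DIV2 and 649.5 and 676 CPM at DIV5 (log2 fold change 1.56 ± 0.05, adjusted p = 7.9e-12). Glutamine synthetase, Glul, which turns synaptic glutamate into glutamine, went from 149 and 150 to 467 and 418 CPM (log2 fold change 1.43 ± 0.06, adjusted p = 1.1e-10). The intermediate filament gene Gfap rose from 377 and 375 to 872 and 908 CPM (log2 fold change 1.10 ± 0.08, adjusted p = 9.7e-07). Values of the replicates were close and the groups did not overlap for any of these genes. Apoe, a lipid carrier made by astrocytes and by activated microglia, rose from 157 and 138 to 1168 and 1268 CPM (log2 fold change 2.90 ± 0.08, adjusted p = 9.4e-11). The steepest member was Gjb6, which encodes the gap junction protein connexin 30, at 0.432 and 0.685 CPM at DIV2 and 43.9 and 36.8 CPM at DIV5 (log2 fold change 6.07 ± 0.19, adjusted p = 6.6e-12). Its relative Gjb2 (connexin 26), found among the largest rises of the genes lower in TRAP, went from 0.692 and 1.37 to 159 and 134 CPM (log2 fold change 7.09 ± 0.20, adjusted p = 3.9e-09). Glial and meningeal cells both express Gjb6 and Gjb2. The summed astrocyte list stood at 2020 and 2001 CPM at DIV0, 2490 and 2744 at DIV2 and 7157 and 7072 at DIV5. The 5 DIV5 cultures with Atoh1-Cre ranged from 7396 to 23940 CPM, all above both DIV5 libraries described here. Gjb6 did not follow that sum. It stood at 0.0729 to 10.4 CPM in the Atoh1-Cre cultures, with a median of 0.395 CPM, under both DIV5 libraries described here.

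Genes listed for reactive astrocytes rose in 13 of 15 tested cases and fell in none, median 1.52; the acute phase gene Lcn2 was too low to test. The oncostatin M receptor gene Osmr rose from 24.2 and 31.6 to 112 and 108 CPM (log2 fold change 1.85 ± 0.11, adjusted p = 2.4e-07) and Ggta1 from 8.43 and 11.8 to 43.6 and 42.5 CPM (log2 fold change 1.97 ± 0.13, adjusted p = 1.1e-08). The members with the largest fold changes were Gbp2, a guanylate-binding protein gene, at 0.562 and 1.495 and then 27.1 and 24.7 CPM, and the chemokine gene Cxcl10, at 0.173 and 0.0623 and then 2.17 and 2.05 CPM, both of which are standard interferon targets. The complement gene C3, often used to mark a reactive state, stood at 0.865 and 0.498 CPM at DIV2 and 0.483 and 1.17 CPM at DIV5, with overlapping groups.

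The oligodendrocyte list moved in both directions, with 4 rises and 7 falls among 16 tested members and a median of 0.00. Rises were 25% and falls 43.8% of the members, against 31.1% and 35.7% of all genes. The summed list went from 484 and 488 CPM at DIV2 to 724 and 720 CPM at DIV5. Members of committed precursors fell: Bcas1 from 19.1 and 18.5 to 9.41 and 9.39 CPM (log2 fold change -1.14 ± 0.10, adjusted p = 1.0e-07) and the receptor gene Gpr17 from 5.40 and 6.17 to 2.29 and 2.52 CPM (log2 fold change -1.39 ± 0.17, adjusted p = 5.0e-06). The 4 that rose were Pdgfra, Cldn11, Cspg4 and Cnp. Pdgfra, a receptor gene of oligodendrocyte progenitors and of fibroblasts, went from 56.5 and 70.8 to 249 and 223 CPM (log2 fold change 1.76 ± 0.11, adjusted p = 7.0e-07). Cldn11, a tight junction gene of myelin and of the arachnoid, went from 16.6 and 18.9 to 61.1 and 54.7 CPM (log2 fold change 1.57 ± 0.09, adjusted p = 1.4e-09). The number of rises rests on single libraries: it was 7 without DIV2 replicate 1 and 2 without DIV5 replicate 1.

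Microglia are the resident macrophages of the brain. Their genes rose in 23 of 24 cases, with a median log2 fold change of 2.71. The lysosomal membrane gene Laptm5 went from 16.1 and 13.6 to 131 and 137 CPM (log2 fold change 3.02 ± 0.08, adjusted p = 2.2e-12), and Csf1r, the receptor on which microglial survival depends, from 21.8 and 18.6 to 149 and 161 CPM (log2 fold change 2.79 ± 0.08, adjusted p = 3.9e-12). Aif1, which encodes the common microglial stain Iba1, was low and rose from 0.216 and 0.249 to 2.59 and 3.08 CPM (log2 fold change 3.46 ± 0.43, adjusted p = 6.4e-06). For these genes every DIV5 value was more than 5 times every DIV2 value. Gpnmb, a glycoprotein gene of phagocytic microglia, rose from 60.7 and 65.8 to 402 and 428 CPM (log2 fold change 2.57 ± 0.06, adjusted p = 7.7e-13) and the galectin gene Lgals3 from 28.5 and 26.1 to 152 and 151 CPM (log2 fold change 2.32 ± 0.07, adjusted p = 4.4e-12). The MHC class II chaperone gene Cd74 was near 0, at 0.259 and 0.561 and then 0.543 and 0.840 CPM, and was not called. The homeostatic markers P2ry12, at 0.778 and 0.748 and then 5.91 and 5.79 CPM, and Tmem119, at 3.59 and 6.04 and then 28.5 and 23.7 CPM, rose along with the rest. The list summed to 186 and 178 CPM at DIV0, 457 and 418 at DIV2 and 3194 and 3403 at DIV5. In the Atoh1-Cre cultures at DIV5 the same sum was 2914 and 3612 CPM in 2 libraries and 232, 315 and 339 CPM in the other 3, so a high microglial level was not a constant feature of day 5.

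Mesenchymal genes held the largest share of counts among the non-neuronal lists. Fibroblast and meningeal genes rose in 28 of 29 cases (median 2.06). Their sum went from 7365 and 11717 CPM at DIV2 to 45534 and 40055 CPM at DIV5. It was 1957 and 1958 CPM at DIV0 and 911 to 1033 CPM in the cerebellar inputs. In the 5 Atoh1-Cre cultures at DIV5 it was 12803 to 31671 CPM, above both DIV2 libraries and under both DIV5 libraries described here. Those 5 sums lack 1 of the 29 genes, which is blank in these cultures. The collagen gene Col1a1 stood at 2028 and 3442 CPM at DIV2 and 8364 and 7692 CPM at DIV5 (log2 fold change 1.41 ± 0.27, adjusted p = 0.0092). Its DIV2 libraries differed widely, and the call was lost without DIV5 replicate 1 (log2 fold change 1.32, adjusted p = 0.05018). Decorin, Dcn, a small matrix proteoglycan gene, was better resolved, at 23.3 and 27.1 and then 194 and 169 CPM (log2 fold change 2.72 ± 0.10, adjusted p = 5.8e-10). Timp3, an inhibitor of matrix proteases, went from 144 and 169 to 749.8 and 663 CPM (log2 fold change 2.04 ± 0.09, adjusted p = 3.8e-08). Fibronectin, Fn1, rose from 837 and 1393 to 10281 and 8478 CPM, and the fetal growth factor gene Igf2, made in the brain mainly by meninges and choroid plexus, from 37.4 and 52.7 to 1930 and 1584 CPM (log2 fold change 5.16 ± 0.24, adjusted p = 2.2e-05). Both genes were picked out after their values were seen. Of the 29 members 20 had already risen between DIV0 and DIV2, and 4 had fallen (36.4% and 35% of all genes rose and fell in that step). Col1a1 was 4.65 log2 units higher at DIV2 than at DIV0, whereas Dcn fell by 0.49 log2 units in that step.

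Genes of pericytes and smooth muscle, the mural cells of vessels, rose in 13 of 14 cases, median 1.71. The peptidase gene Anpep went from 5.92 and 6.23 to 79.3 and 75.5 CPM (log2 fold change 3.53 ± 0.09, adjusted p = 1.7e-12), and the adhesion factor gene Vtn from 4.89 and 9.03 to 50.5 and 43.4 CPM (log2 fold change 2.67 ± 0.26, adjusted p = 2.1e-04). Acta2, the smooth muscle actin gene that activated fibroblasts also express, stood at 134 and 251 CPM at DIV2 and 749.7 and 637 CPM at DIV5. Endothelial genes were mixed: 7 of 14 rose and none fell, median 0.77, and the list summed to 420.1 and 433 CPM at DIV0, 64.5 and 78.9 CPM at DIV2 and 215 and 192 CPM at DIV5. Much of the DIV5 sum was the endothelial cadherin gene Cdh5 alone, at 26.6 and 42.8 and then 154 and 135 CPM. Tight junction gene Cldn5 stood at 0.519 and 0.374 CPM and 1.33 and 0.514 CPM and Pecam1 at 1.30 and 1.31 CPM and 1.57 and 1.87 CPM, near 0 on both days and not called. The angiopoietin receptor gene Tek rose from 0.259 and 0.311 to 3.38 and 3.08 CPM (log2 fold change 3.35 ± 0.33, adjusted p = 4.9e-07). Red cell genes summed to 91.1 and 88.1 CPM at DIV0, 2.20 and 1.56 CPM at DIV2 and 0.241 and 0.420 CPM at DIV5. Of 10 choroid plexus and ependymal genes 4 rose and 2 fell (40% and 20%, against 31.1% and 35.7% of all genes). Among them was the water channel gene Aqp1, from 3.46 and 3.36 to 60.4 and 56.8 CPM (log2 fold change 3.96 ± 0.18, adjusted p = 2.2e-08), while the choroid plexus marker Ttr stood at 2.08 and 1.25 and then 0.844 and 3.32 CPM with overlapping groups. Otx2, which granule progenitors also express, fell from 64.0 and 60.7 to 27.1 and 31.5 CPM (log2 fold change -1.23 ± 0.08, adjusted p = 5.9e-09).

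**Figure D3:**
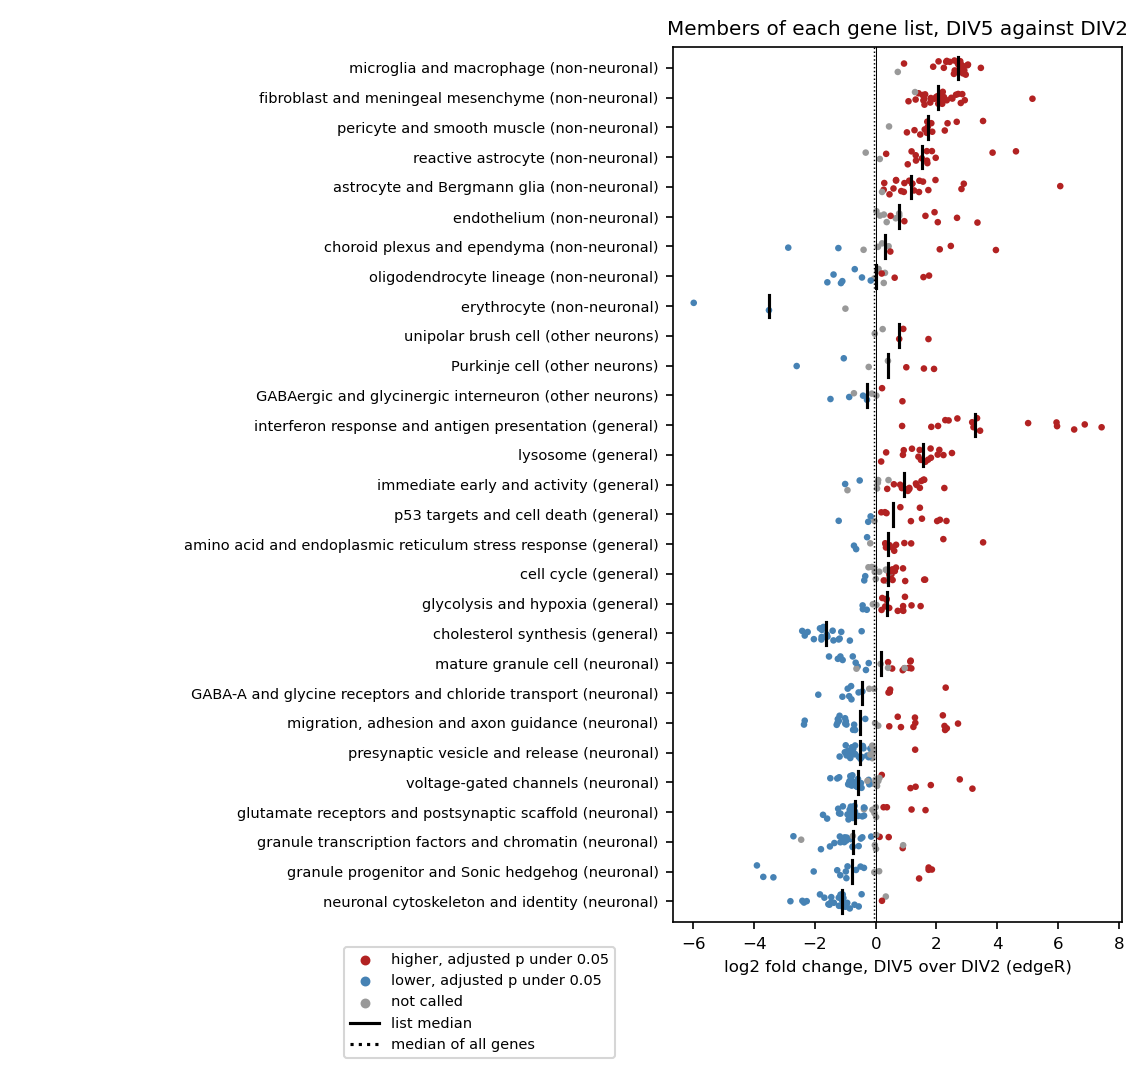
log2 fold change from DIV2 to DIV5 (x axis) of every tested member of the 29 gene lists (y axis, ordered by kind and then by median); red points rose, blue points fell and grey points were not called at an adjusted p of 0.05, black bars are list medians and the dotted line is the median of all genes. Microglial and mesenchymal lists lie almost wholly right of 0, neuronal cytoskeleton and cholesterol synthesis almost wholly left, and the mature granule cell list spreads over both sides.

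Most listed neuronal genes fell, with the mature granule cell list as an exception. Of 236 tested members of the 9 neuronal lists 160 fell and 43 rose, median -0.69, and their summed level went from 65277 and 64432 CPM to 40291 and 42039 CPM. Over the same days the summed level of the non-neuronal lists went from 11625 and 16569 to 59944 and 54279 CPM, and the part of that in the neuronal falls was not tested. With libraries scaled on genes enriched in granule cell TRAP, 144 neuronal members were lower and 60 higher, median -0.44.

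Genes of the neuronal cytoskeleton and of neuronal identity fell in 29 of 31 cases, median -1.11. The neuronal tubulin gene Tubb3 stood at 417 and 393 CPM at DIV2 and 61.9 and 65.7 CPM at DIV5 (log2 fold change -2.81 ± 0.05, adjusted p = 2.2e-13). Tubb2b went from 1626 and 1496 to 343 and 371 CPM (log2 fold change -2.27 ± 0.06, adjusted p = 7.9e-13). The collapsin response mediator genes Dpysl5, at 466 and 477 and then 159 and 164 CPM, and Crmp1, at 990.3 and 958 and then 369 and 381 CPM, serve growth cone steering and fell by 1.69 and 1.52 log2 units. Both DIV5 libraries lay far under both DIV2 libraries for each of these genes. Map2, the dendritic microtubule protein gene, went from 953 and 954 to 469.8 and 473 CPM (log2 fold change -1.16 ± 0.04, adjusted p = 3.8e-11), and the cell adhesion gene Ncam1 from 523 and 557 to 416 and 448 CPM (log2 fold change -0.46 ± 0.06, adjusted p = 3.8e-06). The secretory granule gene Chgb was the one member that rose, from 180.5 and 196 to 228 and 250.5 CPM (log2 fold change 0.21 ± 0.06, adjusted p = 0.0062), and without DIV5 replicate 2 the list had no rise.

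Progenitor and Sonic hedgehog genes fell in 12 of 18 cases and rose in 4. Nhlh1, a helix-loop-helix factor of newly postmitotic cells, went from 44.7 and 46.3 to 3.50 and 4.16 CPM (log2 fold change -3.70 ± 0.09, adjusted p = 7.7e-13), and Sox11, a factor of immature neurons, from 213 and 202 to 52.2 and 59.0 CPM (log2 fold change -2.04 ± 0.06, adjusted p = 3.1e-12). Atoh1, which defines granule progenitors, was already low at DIV2, at 0.821 and 0.748 CPM against 52.1 and 50.6 CPM at DIV0, and fell further, with 19 and 12 counts in the DIV2 libraries and 1 and 2 in the DIV5 libraries. The lineage factors Zic1, from 2269 and 2179 to 1075 and 1114 CPM, and Pax6, from 447 and 415 to 187 and 208 CPM, fell by 1.17 and 1.27 log2 units while both remained above 180 CPM. Sonic hedgehog targets and transducers moved both ways: the receptor gene Ptch1 fell, while Smo (21.1 and 30.2 and then 78.8 and 71.4 CPM), Gli2 (3.67 and 5.17 and then 16.6 and 15.4 CPM), Gli1 and the secreted Wnt inhibitor gene Sfrp1 rose. The log2 ratio of granule cell TRAP over input was -1.01 for Smo, -1.61 for Gli1, -0.995 for Gli2 and -0.36 for Sfrp1. Of genes that fell, it was 0.83 for Zic1, 0.77 for Pax6, 0.75 for Nhlh1, 0.12 for Atoh1 and -0.89 for Sox11. In the whole list of 18 genes, 4 are sorted as lower in TRAP and 6 as higher.

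Granule transcription factor and chromatin genes fell in 18 of 27 cases and rose in 3, median -0.76. The largest fall was in Ebf3, a factor of early postmitotic neurons, from 62.1 and 62.2 to 10.4 and 10.6 CPM (log2 fold change -2.71 ± 0.08, adjusted p = 5.6e-12). Insm1, a zinc finger factor of newborn neurons, fell from 154 and 157 to 48.4 and 50.2 CPM (log2 fold change -1.80 ± 0.05, adjusted p = 4.7e-12) and Nfib, which with its relatives times granule cell differentiation, from 1858 and 1756 to 693 and 710.1 CPM (log2 fold change -1.51 ± 0.05, adjusted p = 4.4e-12). The methyltransferase gene Ezh2 went from 49.2 and 51.0 to 29.9 and 35.2 CPM (log2 fold change -0.76 ± 0.08, adjusted p = 7.8e-07), whereas Ezh1 stood at 52.4 and 46.8 CPM and 54.4 and 56.8 CPM and was not called. Among the rises were Tcf12 and Mef2c, an activity-dependent factor, which went from 21.1 and 18.7 to 38.5 and 43.1 CPM (log2 fold change 0.89 ± 0.08, adjusted p = 2.8e-07).

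Migration, adhesion and guidance genes went both ways. Of 28 tested members 15 fell and 11 rose (53.6% and 39.3%, against 35.7% and 31.1% of all genes). Doublecortin, Dcx, a microtubule protein of migrating neurons, fell from 1590 and 1629 to 352 and 351 CPM (log2 fold change -2.34 ± 0.07, adjusted p = 4.7e-12). Dcc fell from 19.0 and 19.4 to 3.62 and 4.53 CPM (log2 fold change -2.36 ± 0.12, adjusted p = 6.2e-10), and Cntn2, an adhesion molecule of parallel fibres, from 1714 and 1595 to 739 and 836 CPM (log2 fold change -1.21 ± 0.05, adjusted p = 1.5e-10). The 5 steepest rises were Cdh11, Cxcr4, Nrp1, Slit2 and Epha4, each lower in TRAP than input by more than 1 log2 unit. Of the 28 tested members 12 are sorted as lower in TRAP, and the falling Dcc is also among them. Nrp1, a semaphorin and VEGF co-receptor, went from 30.1 and 39.8 to 191 and 182 CPM (log2 fold change 2.28 ± 0.12, adjusted p = 3.0e-07), and the mesenchymal cadherin gene Cdh11 from 48.2 and 66.7 to 444 and 378 CPM (log2 fold change 2.71 ± 0.20, adjusted p = 1.0e-04).

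The mature granule cell list had no common direction. Of 21 members 8 rose and 9 fell (38.1% and 42.9%, against 31.1% and 35.7% of all genes), with a median of 0.16. Scaled on genes enriched in granule cell TRAP, 10 rose and 6 fell. The rises included defining genes of the adult granule cell. Grm4, the presynaptic metabotropic glutamate receptor of parallel fibres, went from 146 and 162 to 380.5 and 374 CPM (log2 fold change 1.15 ± 0.07, adjusted p = 2.3e-09), and Gabra6 from 7.05 and 6.79 to 17.4 and 16.4 CPM (log2 fold change 1.14 ± 0.11, adjusted p = 6.6e-07). Gabrd, the delta subunit that pairs with alpha 6 in extrasynaptic receptors, rose from 53.2 and 52.3 to 103 and 113 CPM (log2 fold change 0.89 ± 0.06, adjusted p = 8.4e-09). Grin2c, the mature NMDA receptor subunit gene, rose from 4.71 and 6.04 to 11.3 and 13.4 CPM (log2 fold change 1.09 ± 0.15, adjusted p = 2.2e-05). Both DIV5 libraries were above both DIV2 libraries in each of these. Cbln3 and Cbln1, secreted synapse organisers, Slc17a7, the vesicular glutamate transporter of mature fibres, and the transcription factor gene Etv1 completed the rises. Etv1 went from 17.0 and 18.1 to 46.6 and 40.6 CPM (log2 fold change 1.17 ± 0.10, adjusted p = 8.7e-08). Among the falls were factors of the whole granule lineage: Neurod1 fell from 1668 and 1603 to 797 and 816 CPM (log2 fold change -1.16 ± 0.05, adjusted p = 5.1e-11) and Neurod2 from 579 and 551 to 259 and 267 CPM (log2 fold change -1.25 ± 0.05, adjusted p = 4.3e-11). Kcnc1, a fast potassium channel gene, fell from 380.5 and 386 to 195 and 203 CPM (log2 fold change -1.09 ± 0.05, adjusted p = 2.7e-10), and Calb2, which encodes calretinin, from 176 and 169 to 65.7 and 65.6 CPM (log2 fold change -1.54 ± 0.08, adjusted p = 4.6e-09). On GRCm38.p6, Gabra6 spans chromosome 11 from 42306437 to 42321072, Grm4 chromosome 17 from 27422387 to 27513826 and Neurod1 chromosome 2 from 79452637 to 79456636.

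**Figure D4:**
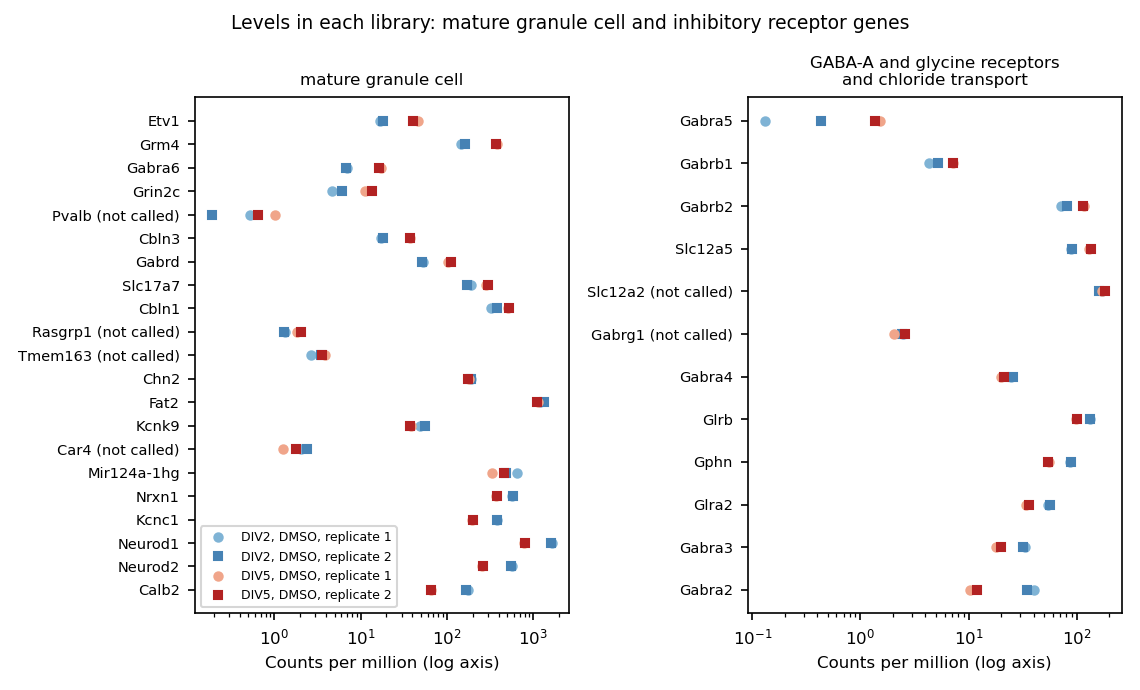
CPM (log axis) of each member of the mature granule cell list (left) and of the tested inhibitory receptor and chloride transport genes (right, 12 of 15 shown) in the 2 DIV2 libraries (blue) and the 2 DIV5 libraries (red), ordered by fold change. At the top of the left panel Etv1, Grm4, Gabra6 and Grin2c are higher at DIV5, and at the bottom Kcnc1, Neurod1, Neurod2 and Calb2 are lower.

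Synaptic genes mostly fell. Of 32 presynaptic genes 26 fell and 1 rose, median -0.53. The vesicle protein gene Sv2b went from 456 and 462 to 262 and 276 CPM (log2 fold change -0.91 ± 0.05, adjusted p = 2.1e-09). The active zone gene Rims2 fell from 81.3 and 91.2 to 41.8 and 41.6 CPM (log2 fold change -1.19 ± 0.07, adjusted p = 3.9e-09). Slc17a6, the vesicular glutamate transporter of young granule cells, fell from 218 and 217 to 133 and 152 CPM (log2 fold change -0.75 ± 0.07, adjusted p = 2.8e-07) while Slc17a7 rose from 191 and 171 to 284 and 298 CPM (log2 fold change 0.54 ± 0.07, adjusted p = 6.5e-06). The one presynaptic rise was Sv2c, from 1.43 and 0.872 to 2.77 and 3.64 CPM.

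Glutamate receptor and postsynaptic scaffold genes fell in 22 of 31 cases and rose in 4, median -0.70. The NMDA receptor subunit gene Grin2b, dominant in immature neurons, fell from 108 and 107 to 39.4 and 38.9 CPM (log2 fold change -1.60 ± 0.06, adjusted p = 6.0e-11). Grm5 fell from 161 and 167 to 53.7 and 55.0 CPM (log2 fold change -1.73 ± 0.08, adjusted p = 2.6e-10), and the scaffold gene Homer2 from 349 and 357 to 165 and 166 CPM (log2 fold change -1.24 ± 0.05, adjusted p = 4.7e-11). For all 3 the DIV5 values lay under both DIV2 values. The rises were Gria1, Gria3, Grin2d and Camk2a; the AMPA receptor gene Gria1, which Bergmann glia also express, went from 20.6 and 24.0 to 57.2 and 53.7 CPM (log2 fold change 1.18 ± 0.09, adjusted p = 2.9e-08). Grin2a, the other late NMDA receptor subunit gene, stood at 9.86 and 9.16 CPM and 11.5 and 9.67 CPM and was not called.

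Genes of inhibitory receptors moved both ways, subunit by subunit. Of 15 tested members 8 fell and 5 rose (53.3% and 33.3%, against 35.7% and 31.1% of all genes). Gabra2, an alpha subunit gene of immature neurons, fell from 40.2 and 34.9 to 10.3 and 12 CPM (log2 fold change -1.89 ± 0.11, adjusted p = 1.5e-09). Gabra3 and the anchoring protein gene Gphn were among the other falls. Gabra5, Gabrb1, Gabrb2 and Slc12a5 were among the rises. Slc12a5, the potassium chloride cotransporter that makes GABA inhibitory, went from 88.8 and 90.2 to 129.6 and 135 CPM (log2 fold change 0.42 ± 0.07, adjusted p = 2.2e-04), and Gabrb2, the adult beta subunit gene of granule cells, from 72.4 and 81.0 to 118 and 114 CPM (log2 fold change 0.46 ± 0.06, adjusted p = 1.9e-05). The number of rises was 3 without DIV2 replicate 1 or without DIV5 replicate 2.

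Voltage-gated channel genes fell in 21 of 33 cases and rose in 6, median -0.58. The potassium channel gene Kcnj6 fell from 81.5 and 86.5 to 35.1 and 30.9 CPM (log2 fold change -1.49 ± 0.08, adjusted p = 5.8e-10). The calcium channel subunit gene Cacna2d1 fell from 404 and 377 to 185 and 189 CPM (log2 fold change -1.20 ± 0.06, adjusted p = 2.5e-10). Among the rises were the sodium channel subunit gene Scn4b and the potassium channel genes Kcnc4 and Kcnc2, all under 12 CPM on both days. Scn2a, which forms the main pore of young axons, rose slightly, from 83.3 and 85.9 to 105 and 109.5 CPM (log2 fold change 0.20 ± 0.06, adjusted p = 0.0057). Scaled on genes enriched in granule cell TRAP, the number of rises was 11.

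Markers of Purkinje cells and of inhibitory interneurons moved both ways, as did genes at large, of which 31.1% rose and 35.7% fell. Of 7 tested Purkinje cell genes 3 rose and 2 fell. Pcp4 fell from 252 and 227 to 126 and 129.6 CPM (log2 fold change -1.05 ± 0.06, adjusted p = 2.5e-09), the transcription factor gene Foxp2 rose from 3.24 and 3.61 to 15.02 and 13.5 CPM (log2 fold change 1.92 ± 0.15, adjusted p = 4.4e-08), and the defining marker Pcp2 was too low to test. Of 9 tested interneuron genes 4 fell and 2 rose, with 2 falls without either DIV2 library. Pax2, a factor of young interneurons, fell from 14.4 and 15.5 to 5.91 and 5.84 CPM (log2 fold change -1.49 ± 0.12, adjusted p = 4.8e-08). The synthetic enzyme gene Gad1 stood at 90.7 and 82.2 CPM and 102 and 118 CPM. Of 5 genes of unipolar brush cells, which are excitatory interneurons of the granular layer, 3 rose and none fell. Among the rises was Eomes, from 6.23 and 6.79 to 12.3 and 12.1 CPM (log2 fold change 0.77 ± 0.11, adjusted p = 2.2e-05).

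Some programs that are not tied to a cell type moved as blocks. All 19 cholesterol synthesis genes fell, median -1.64, and their sum went from 5504 and 5211 to 1790 and 1816 CPM. Hmgcs1, which makes the precursor of mevalonate, fell from 1355 and 1293 to 273 and 273 CPM (log2 fold change -2.42 ± 0.05, adjusted p = 4.0e-13). Idi1 fell from 265 and 250.4 to 57.0 and 55.7 CPM (log2 fold change -2.34 ± 0.06, adjusted p = 7.7e-13). Both DIV5 libraries lay under both DIV2 libraries for each. Smaller falls were seen in the master regulator gene Srebf2, from 688 and 678 to 325 and 337 CPM, and at the end of the pathway in Sc5d, from 102 and 88.5 to 74.1 and 78.7 CPM. No member is lower in TRAP than input, and 3 are higher. Sterol regulatory elements are the sites by which SREBP factors switch on these genes when sterol is short. The sequence TCACNCCAC was searched on both strands of the 250 bases before each start in RefSeq promoters of GRCm38.p6. It was found in 1 of the 13 members with a promoter in the table, Hmgcs1. Counted by gene, it was in 1.24% of the tested genes that have a promoter there, and counted by promoter in 1.05% of all 32851. The Hmgcs1 promoter is shown because it alone in the list had a match. Its gene also had the largest fall of the list. The match is in capitals (chr13:119690101-119690350, plus strand):
Hmgcs1: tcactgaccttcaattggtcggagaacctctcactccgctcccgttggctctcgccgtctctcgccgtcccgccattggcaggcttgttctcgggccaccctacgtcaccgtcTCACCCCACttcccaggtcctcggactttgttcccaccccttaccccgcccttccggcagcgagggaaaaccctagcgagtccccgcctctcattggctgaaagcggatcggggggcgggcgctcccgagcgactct

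Interferon response and antigen presentation genes rose in all 16 cases, with a median log2 fold change of 3.28. Interferon signals through factors that include STAT2 and IRF9 to genes that block viruses and load peptides on MHC class I. The MHC class I gene H2-K1 stood at 10.9 and 10.4 CPM at DIV2 and 105 and 108 CPM at DIV5 (log2 fold change 3.18 ± 0.08, adjusted p = 8.1e-13), and the peptide transporter gene Tap1 at 7.05 and 7.97 and then 43.1 and 43.8 CPM (log2 fold change 2.40 ± 0.10, adjusted p = 6.8e-11). Antiviral genes went from almost nothing to well expressed. Ifit3, which binds signalling adaptors of viral RNA sensors and can share reads with its near copy Ifit3b, rose from 0.346 and 0.311 to 62.9 and 65.8 CPM (log2 fold change 7.43 ± 0.30, adjusted p = 5.1e-08). Bst2, which tethers budding virus particles, rose from 1.47 and 1.43 to 105 and 96.7 CPM (log2 fold change 5.97 ± 0.19, adjusted p = 1.7e-09). Oasl2 went from 0.519 and 0.748 to 81.9 and 78.9 CPM (log2 fold change 6.88 ± 0.26, adjusted p = 2.5e-08), and Ifit1 from 0.519 and 0.810 to 65.0 and 66.5 CPM (log2 fold change 6.53 ± 0.40, adjusted p = 2.0e-05). The replicates of each day were near each other throughout, and the day 5 values stood apart by far. The list also summed to 1723 and 1471 CPM in the UNC1999 cultures of the same day, and to 467 to 842 CPM in the 5 Atoh1-Cre cultures at DIV5, against 301 and 290.4 CPM at DIV2. The microglial sums rose over the same days, and among the Atoh1-Cre cultures the 2 with high microglial sums had 842 and 694 CPM of the interferon list and the other 3 had 555, 690 and 467 CPM. Of the 16 genes 10 are lower in TRAP than input. Which cells carried the interferon transcripts was not tested.

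The interferon-stimulated response element, here TTTC, any 2 bases and TTTC again, on either strand, was found in the 250 bases before the start in 6 of 15 members with a promoter in the table (B2m, Bst2, Ifit1, Ifit3, Isg15 and Stat2), or 40%, against 2.98% of all promoters and 3.18% of the tested genes that have a promoter there. The element was chosen after the rises were seen, and a match of letters does not show that a site is used. Promoters are shown for the 3 members with a match whose genes had the smallest adjusted p from DIV2 to DIV5. They belong to an antiviral effector, a tether and the light chain of MHC class I. Matches are in capitals, and the 2 matches of Bst2 overlap. The Ifit3 window is chr19:34583279-34583528 on the plus strand, before the start given in the promoter table, which lies inside the full span of the gene (34583119 to 34588982). Bst2 lies at chr8:71537473-71537722 on the minus strand and B2m at chr2:122147437-122147686 on the plus strand, each written 5′ to 3′ on the strand of its gene:
Ifit3: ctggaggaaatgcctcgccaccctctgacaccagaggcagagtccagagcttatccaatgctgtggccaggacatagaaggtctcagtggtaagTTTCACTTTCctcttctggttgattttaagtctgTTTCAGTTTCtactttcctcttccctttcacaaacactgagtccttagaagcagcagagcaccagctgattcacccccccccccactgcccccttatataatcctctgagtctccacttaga
Bst2: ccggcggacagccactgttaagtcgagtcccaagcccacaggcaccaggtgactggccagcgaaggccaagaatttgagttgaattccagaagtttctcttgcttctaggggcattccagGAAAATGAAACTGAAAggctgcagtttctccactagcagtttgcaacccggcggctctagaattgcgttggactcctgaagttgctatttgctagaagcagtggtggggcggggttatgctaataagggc
B2m: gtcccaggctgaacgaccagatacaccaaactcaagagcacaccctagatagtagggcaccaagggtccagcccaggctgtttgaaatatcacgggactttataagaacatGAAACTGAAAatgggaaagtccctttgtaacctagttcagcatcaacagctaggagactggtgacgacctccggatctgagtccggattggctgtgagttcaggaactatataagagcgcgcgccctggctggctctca
B2m itself rose from 29.3 and 36.2 to 381 and 343 CPM (log2 fold change 3.34 ± 0.12, adjusted p = 2.4e-08).

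**Figure D5:**
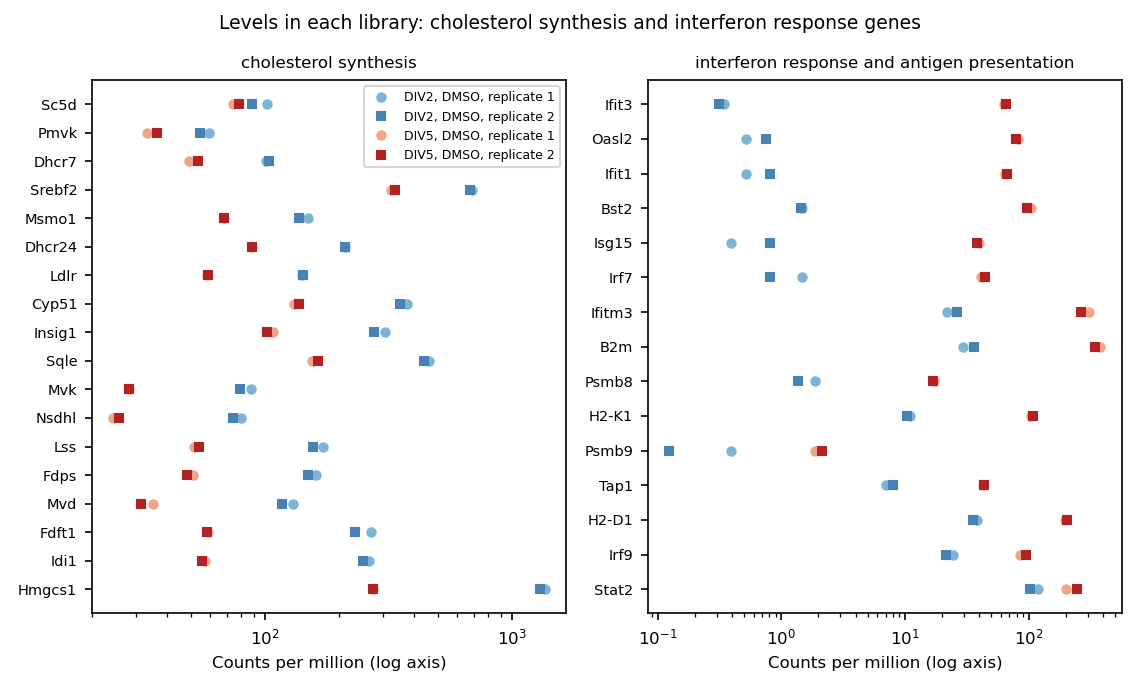
CPM (log axis) of cholesterol synthesis genes (left, 18 of 19 shown) and interferon response and antigen presentation genes (right, 15 of 16 shown) in the 2 DIV2 libraries (blue) and the 2 DIV5 libraries (red), ordered by fold change. The cholesterol genes shown lie lower at DIV5 and the interferon genes shown lie higher, with Ifit3 at the top moving from 0.346 and 0.311 to 62.9 and 65.8 CPM.

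Lysosomal genes rose in all 16 cases, median 1.56, and their sum went from 2325 and 2462 to 7469 and 7520 CPM. Cathepsin D, Ctsd, the main aspartic protease of lysosomes, rose from 293 and 307 to 1520 and 1583 CPM (log2 fold change 2.23 ± 0.05, adjusted p = 8.1e-13). Ctsb rose from 404 and 433 to 1512 and 1539 CPM (log2 fold change 1.72 ± 0.05, adjusted p = 5.1e-12) and Ctsz from 29.6 and 31.8 to 192 and 193 CPM (log2 fold change 2.51 ± 0.06, adjusted p = 1.5e-12). No member of this list is sorted as lower or higher in TRAP than input. The summed list in the Atoh1-Cre cultures at DIV5 was between 3348 and 9040 CPM with a median of 3926 CPM. Those sums lack 1 of the 16 genes, which is blank in these cultures.

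Immediate early genes, which report recent neuronal firing or growth factor signalling, rose in 15 of 22 cases and fell in 2, median 0.94, after 20 of the 22 had fallen between DIV0 and DIV2. Egr1 stood at 329 and 345 CPM at DIV0, 7.39 and 8.10 CPM at DIV2 and 24.2 and 22.4 CPM at DIV5 (log2 fold change 1.45 ± 0.13, adjusted p = 9.1e-07). Fosl2 went from 22.2 and 26.0 to 67.2 and 65.2 CPM (log2 fold change 1.32 ± 0.09, adjusted p = 6.0e-09), and Npas4, which calcium entry switches on in neurons, from 2.77 and 2.12 to 6.15 and 9.99 CPM (log2 fold change 1.58 ± 0.24, adjusted p = 1.1e-04). Bdnf rose from 8.47 and 11.4 to 26.2 and 28.5 CPM (log2 fold change 1.34 ± 0.19, adjusted p = 1.5e-04). At DIV5 Egr1 was above its DIV2 level and far under its DIV0 level.

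Cell cycle genes rose a little from their low at DIV2. Of 26 genes 13 rose and 2 (E2f1 and Cenpf) fell, median 0.40, and the sum went from 6776 and 6629 CPM at DIV0 through 525 and 679 CPM at DIV2 to 1068 and 1010 CPM at DIV5. The proliferation antigen gene Mki67 stood at 1281 and 1241, then 40.8 and 59.5, then 98.1 and 106 CPM (log2 fold change 0.90 ± 0.17, adjusted p = 0.0048 from DIV2 to DIV5). The replication helicase gene Mcm6 rose from 25.7 and 29.0 to 60.7 and 57.2 CPM (log2 fold change 0.97 ± 0.08, adjusted p = 8.7e-08), and the D cyclin genes Ccnd1 from 14.7 and 17.1 to 54.3 and 53.1 CPM (log2 fold change 1.63 ± 0.09, adjusted p = 8.3e-10) and Ccnd2 from 74.0 and 93.7 to 302 and 254 CPM (log2 fold change 1.59 ± 0.14, adjusted p = 7.0e-05). DIV2 replicate 2 was the higher of its pair for all of these genes but Tyms, and without it 20 members rose and none fell. Summed levels of the non-neuronal lists rose over the same days. Which cells carried the cell cycle transcripts was not tested.

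Stress programs rose in part. Of 16 amino acid and endoplasmic reticulum stress genes 12 rose and 3 fell. The cystine transporter gene Slc7a11, which supplies glutathione synthesis and which astrocytes and fibroblasts raise in culture, went from 35.2 and 52.3 to 600.2 and 506 CPM (log2 fold change 3.53 ± 0.22, adjusted p = 6.0e-05), while Atf4, a central factor of the program, fell from 220.1 and 211 to 152 and 152 CPM (log2 fold change -0.64 ± 0.06, adjusted p = 1.9e-07). Of 14 genes of p53 and cell death 10 rose and 3 fell, the last number being 1 without DIV2 replicate 1. The cell cycle inhibitor gene Cdkn1a rose from 99.2 and 111 to 312 and 322 CPM (log2 fold change 1.45 ± 0.07, adjusted p = 1.7e-10). Of 18 glycolysis and hypoxia genes 13 rose and 3 fell. Vegfa, an angiogenic growth factor gene induced by low oxygen, rose from 26.1 and 28.7 to 79.7 and 87.7 CPM (log2 fold change 1.48 ± 0.08, adjusted p = 5.7e-10). The neuronal enolase gene Eno2 rose from 50.1 and 50.1 to 99.4 and 108 CPM (log2 fold change 0.91 ± 0.06, adjusted p = 1.3e-08).

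The largest changes within each expression class were taken without regard to any list. Among genes lower in TRAP, the 8 largest rises of called genes whose mean reached 10 CPM were Iigp1, Ifit3, Gjb2, Oasl2, Ifit1, Gjb6, Trim30d and Bst2. Ifit3, Oasl2, Ifit1 and Bst2 belong to the interferon list. Iigp1, an interferon-inducible GTPase gene, went from 0.0432 and 0.125 to 26.4 and 23.8 CPM. Among genes in neither class, the 8 were Usp18, Parp9, Dtx3l and Parp10, all known interferon targets, and Smoc2, a matrix protein gene (5.27 and 7.35 and then 202 and 188 CPM), Lbp, an acute phase gene (2.81 and 2.99 and then 89.4 and 83.2 CPM), Gpc3 and Slc7a11.

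The 8 largest rises among genes enriched in granule cell TRAP were Mrgprf, Mmp23, Fxyd2, Itgb5, Tmem159, Vkorc1, Rara and Pck2. Mrgprf, an orphan receptor gene, rose from 2.59 and 3.18 to 32.2 and 30.4 CPM (log2 fold change 3.32 ± 0.13, adjusted p = 4.4e-11), and in granule cell TRAP it was 4.33 log2 units higher at P12 than at P7. The matrix protease gene Mmp23 rose from 6.18 and 7.35 to 51.3 and 49.6 CPM (log2 fold change 2.77 ± 0.12, adjusted p = 1.3e-10). Fxyd2, a sodium pump regulator gene, rose from 3.42 and 1.25 to 16.6 and 18.9 CPM (log2 fold change 2.69 ± 0.60, adjusted p = 0.012), and lost its call without DIV2 replicate 2 or DIV5 replicate 2. The 8 largest falls of this class were Chrna3, Igfbpl1, Nhlh1, Sstr2, Rcor2, Tubb3, Galr1 and Nhlh2. The nicotinic receptor subunit gene Chrna3 fell from 19.3 and 18.4 to 1.09 and 1.77 CPM (log2 fold change -3.82 ± 0.17, adjusted p = 1.3e-10), the somatostatin receptor gene Sstr2 from 55.6 and 54.3 to 6.76 and 6.26 CPM (log2 fold change -3.23 ± 0.09, adjusted p = 2.1e-12), and Rcor2, a corepressor gene of neuronal precursors, from 125 and 113 to 17.7 and 18.5 CPM (log2 fold change -2.86 ± 0.07, adjusted p = 7.7e-13).

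Falls also occurred among genes lower in TRAP, where the largest were Miat, Pcdh17, Grid2ip, Dcc, Cracd, Ace, Ifi203 and Trim36. Miat, a long nuclear RNA of neurons, fell from 449 and 361 to 51.5 and 74.4 CPM (log2 fold change -2.82 ± 0.20, adjusted p = 1.0e-04), and the protocadherin gene Pcdh17 from 84.1 and 98.5 to 15.5 and 14.8 CPM (log2 fold change -2.73 ± 0.10, adjusted p = 2.1e-11). In neither class the largest falls were Ndst4, Draxin, Syt6, Ebf3, Zmat4, Btbd17, Hs6st3 and B3galt2. Draxin, a repulsive guidance protein gene, fell from 45.3 and 50.8 to 6.27 and 6.58 CPM (log2 fold change -3.04 ± 0.12, adjusted p = 6.0e-10), and Ndst4, a heparan sulfate enzyme gene, from 22.1 and 20.6 to 1.93 and 2.05 CPM (log2 fold change -3.56 ± 0.21, adjusted p = 5.0e-09).

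Whether the later step differed from the earlier one was tested gene by gene as the change from DIV2 to DIV5 less the change from DIV0 to DIV2. The steps share the DIV2 libraries and last 3 and 2 days. The later change was the higher one for 31.2% of genes and the lower one for 33.3%. Among neuronal list members it was lower for 172 of 236 and higher for 46. Synaptic genes had risen in the earlier step and fell in the later one: of 32 presynaptic genes, 28 rose and 4 fell from DIV0 to DIV2 (36.4% and 35% of all genes), and the later change was lower for 29. Sv2b was 1.52 log2 units higher at DIV2 than at DIV0 and then fell by 0.91 log2 units to DIV5 (difference of the steps -2.43 ± 0.09, adjusted p = 1.1e-11). Cholesterol genes rose in 18 of 19 cases in the earlier step and fell in all 19 in the later one, and the difference was called for all 19. Gabra6 and Grm4 kept rising but by less: Grm4 was 4.97 log2 units higher after the earlier step and 1.15 after the later one (difference -3.81 ± 0.13, adjusted p = 1.1e-11). Cell cycle genes fell in 26 of 26 cases in the earlier step, and the later change was higher for all 26. Interferon genes, of which 6 rose and 1 fell in the earlier step, had a higher change in the later one in 14 of 16 cases.

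Maturation in the dish was set against the animal as the change from DIV2 to DIV5 less the change in granule cell TRAP from P7 to P12, in 1 fit of 23 libraries with none shared. The culture change was higher for 29.8% of 16664 genes and lower for 29.4%. It was lower for 161 of 236 neuronal members and higher for 28, and higher for 88 of 147 non-neuronal members and lower for 13. The step in culture lasts 3 days and is shorter than the step in the animal. Total RNA of a mixed culture and ribosome-bound RNA of granule cells also differ in what cells they sample. The parts of step length and of cells sampled in the differences were not tested. No mature granule cell gene had a higher change in culture by this test, and 18 of 21 had a lower one. Gabra6 rose by 1.21 log2 units in this fit in culture and by 3.89 in the animal (difference -2.68 ± 0.33, adjusted p = 4.0e-07). Its level in TRAP went from 49.6 ± 14.8 CPM at P7 to 700.0 ± 61.7 CPM at P12 (mean ± standard deviation of 5 libraries each). Against the animal's step from P12 to P21 the difference was 0.212 for Gabra6 and -0.211 for Grm4, and neither was called. Kcnc1 fell by 1.02 log2 units in culture and rose by 1.60 in the animal (difference -2.62 ± 0.14, adjusted p = 2.7e-12). Neurod2 likewise fell in culture and rose by 0.45 in the animal (difference -1.62 ± 0.11, adjusted p = 6.6e-11). For other genes the difference was not called. Sox11 fell by 1.97 and 1.66 log2 units (difference -0.31 ± 0.16, adjusted p = 0.1), Grin2b by 1.53 and 1.06 (difference -0.47 ± 0.24, adjusted p = 0.1) and Insm1 by 1.73 and 1.59 (difference -0.14 ± 0.21, adjusted p = 0.58). Cholesterol genes had lower changes in culture in all 19 cases and interferon genes higher ones in 14 of 16. Cell cycle genes had higher changes in culture in 25 of 26 cases, and Mki67 fell by 3.30 log2 units in TRAP between P7 and P12.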

How the data were processed

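Poly(A) RNA of cultured mouse granule cells, of granule cell TRAP and of cerebellar inputs was sequenced as single-end reads, per the labels' protocols. The authors deposited 1 table of estimated counts, held as whole numbers, for 24100 Entrez genes in 39 libraries. Salmon 0.8.2 and mm10 are named in the submitters' processing notes without a role; annotation and strand setting are not given in the sources used here, so overlapping, antisense and near-identical genes are uncertain. Symbols matched 24045 genes, and the other 55 held 0.0526% of counts. Blank cells stand for 1041 genes in all Ezh1 libraries.

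The counts were fitted in R 4.3.3 with edgeR 4.0.16 (robust quasi-likelihood, TMM scaling, filterByExpr with a minimum count of 10 and minimum total of 15) on the 8 culture libraries, 4 groups of 2. Calls had a two-sided Benjamini-Hochberg adjusted p under 0.05. TRAP was fitted against input over 18 libraries (log2 cuts -1 and 0.5), and culture against animal over 23. CPM is a count per 1000000 of the library total, before TMM scaling. Chromosome positions and promoters (250 bases before the start) are from RefSeq on GRCm38.p6. Alternatives included DESeq2 1.42.0, other scalings, a replicate block and each library left out.

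The comparison and gene lists were chosen with earlier results of these data known. Genes were named by rule: a few anchors, up to 4 called members of each list by adjusted p, and in each TRAP class the 8 steepest rises and 8 steepest falls that were called, averaged 10 CPM or more and had groups that did not overlap. Genes named beyond it, such as Gabrd, Grin2c, Etv1, Slc12a5, Map2, Ezh2, B2m, Igf2 and Cdh5, and the promoter motifs, were chosen after their values were seen. A few genes of the lists are counted but not reported here by name.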

Additional observations from a re-analysis of the deposited data

Results flagged for a closer look

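The change from DIV2 to DIV5 in culture differed from the change from P7 to P12 in granule cell TRAP, by a direct test of the difference, for 4964 genes that were higher in culture and 4893 that were lower. The step in culture, of 3 days, is the shorter one. Among mature granule cell genes the difference was -2.68 log2 units for Gabra6, -1.09 for Neurod1, -1.62 for Neurod2, -2.62 for Kcnc1 and -1.77 for Grm4. With P12 to P21 as the animal's step, Gabra6 (0.212) and Grm4 (-0.211) were not called. In the 5 Atoh1-Cre cultures at DIV5, the summed level of red cell genes was 1.027 CPM in 1 library and 0.376 to 0.477 CPM in the other 4, a gap large against the range. These sums are near 0 and lack 1 of the 3 genes, which is blank there. Of 10 list sums looked at in this way, only this one stood out, and chance alone marks about 1 in 20.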

How the results depend on the processing

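Each count below is of genes that rose or fell under 1 changed setting. Among calls of at least 2-fold, 2752 genes rose and 863 fell, with 132 falls among genes lower in TRAP, 67 rises and 225 falls among genes higher in TRAP, and 25 rises and 63 falls in the neuronal lists; the later step against the earlier one then gave 3305 and 3071 genes. Stricter TRAP classes (log2 -2 and 1) hold fewer genes, with 798 rises and 100 falls in the lower class and 165 and 525 in the higher. Classes set by library size alone gave 880 falls in the lower class and 219 rises and 723 falls in the higher, since only 3132 genes were then higher in TRAP. Library size scaling of the cultures gave 802 rises among genes higher in TRAP. Scaling on genes higher in TRAP, added after the data were seen, gave 3473 falls in all, 307 in the lower class, and 1100 rises and 1060 falls in the higher, whose middle this scaling sets near 0 by construction. DESeq2 called 4409 genes higher and 4670 lower. Fitting only the 4 DIV2 and DIV5 DMSO libraries gave 5088 rises and 4707 falls, so the direction with more calls depended on the libraries fitted.

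Leaving out 1 library at a time gave 4483 to 5260 rises and 4574 to 5742 falls over all genes, 1783 to 1962 and 378 to 484 in genes lower in TRAP, 422 to 621 and 1467 to 1888 in genes higher in TRAP, 38 to 44 and 152 to 160 in neuronal lists, and 107 to 115 and 9 to 11 in non-neuronal lists. The later against the earlier step gave 4761 to 5465 and 4231 to 5323, culture against animal 4439 to 5008 and 4251 to 4881, and TRAP against input 5603 to 5816 and 6148 to 6371. With P12 to P21 as the animal's step, the difference for Gabra6 turned to 0.212 (edgeR adjusted p = 0.6) and Grm4 lost its call at -0.211 (adjusted p = 0.5147; the cause was not tested). Nothing in the labels says that replicate numbers pair the libraries. With a replicate block 4863 genes rose and 5615 fell, and no named call changed. Deviations of same-numbered DIV2 and DIV5 libraries had a correlation of -0.292, and the crossed pairing gave 5071 and 5852. Precision is limited by 2 libraries a group and by few counts in genes under 1 CPM.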
